A study of Mus musculus with 40 samples.

Results

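The genes described here encode the proteins of blood clotting, its dissolution and the complement system, together with the serpins, the inhibitor family that holds many of these proteases in check. They were chosen by symbol alone, without regard to their levels, and 74 of the 11119 genes in the deposited tables matched. Of these, 35 are serpins and 39 are complement, clotting and fibrinolysis genes. The serpins include the entry Serpine3--Ints6, which joins Serpine3 with the gene Ints6, so its level is not that of a serpin alone. Among the 37 symbols that the rule spells out in full, 8 had no entry (F7, Vtn, C1qa, C1qb, C1qc, C8g, Cfb and Cfd), and they are not analysed here. The mean level over the 9 groups was above 2 on the authors' log2 scale for 65 members and 2 or less for the remaining 9.

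Hepatocytes make most of the clotting factors and complement proteins of blood plasma. Clotting runs through a cascade of proteases that ends with thrombin cutting fibrinogen into fibrin, which plasmin later dissolves. Complement is activated through antibodies, sugars or spontaneous turnover, and its routes meet at C3 before the terminal proteins build a pore in the target membrane. Serpins trap proteases in a covalent complex, and some, such as the hormone carriers of clade A, no longer inhibit anything. In inflammation, interleukin-6 raises the liver's output of fibrinogen, C3 and several serpins, which are therefore counted among acute phase proteins.

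Polyadenylated RNA of mouse livers had been sequenced at 0, 48 and 72 h after partial hepatectomy (PH), the 0 h samples being taken before it. The labels give the tissue as liver and the cell type as hepatocytes. In PH a part of the organ is cut away and the cells of the rest divide to replace it. ATRi, an inhibitor of the checkpoint kinase ATR, was given to some mice 24 h after PH, and mice without it are called untreated. The 0 h groups had 7 mice of 3 months and 8 of 12 months. The 48 h groups had 3 mice each: untreated of 3 months, untreated of 12 months and ATRi of 12 months. The 72 h groups had 4 mice each, untreated and ATRi at both ages. In the 3-month group at 0 h, some mice are labelled wt1, wt2 and wt3 and the others by number. Beyond these wt labels, which are not explained, the labels used here name no strain, genotype, sex or vehicle.

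Levels are log2 values of a quantity that the authors call sigma, so that a difference of 1 is a 2-fold difference. The depth behind them is unknown. Since it is also unknown whether sigma is per length, levels of different genes are not ranked against each other. For 8 groups only the authors' mean was deposited, so differences between those means carry no replicate error and no test, and members are counted where they differ by 1 or more. The 12-month ATRi group at 72 h also has its 4 livers (mice M545, M546, M547 and M548), and the comparisons that use them were tested with limma over all 11119 genes. Over all genes M546 lay nearest to the untreated mean of the same age and time, with a median absolute difference of 0.214, against 0.353 to 0.405 in the other livers, while its median absolute difference from the other livers was 0.251, against 0.158 to 0.213. The deposited mean of this group lay above the mean of its 4 log2 levels by a median of 0.09 over all genes, and for Serpina1e it was 11.68 against 10.89. How the authors made their means is not given in the sources used here, so each tested difference sets a mean of log2 levels against means that may have been made in another way, and it holds any such offset. The 4 measured hepatocyte markers of 8 listed were at 8.26 or more in every group mean. The tissue also held transcripts of other cells, with a summed log2 level of 8 Kupffer cell and macrophage markers between 7.71 and 9.69 in the untreated means and between 9.12 and 10.1 in the 4 livers. In bulk tissue, fewer cells of a type and less RNA per cell cannot be told apart.

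The members, chiefly the serpins, varied more widely across the groups than the tables at large. Their median level was 6.74, against 2.68 for all genes, and the part of level in this difference was not tested. Of the 74 members, 39 (52.7%) had a range of 1 or more over the 9 group means, against 37.4% of all genes. Over the 6 untreated means this held for 29 members, against 19.5% of all genes. The median range was 1.37 for serpins and 0.86 for the other members, against 0.82 for all genes. Clade A, the plasma serpins related to alpha-1 antitrypsin, had a median range of 1.78, whereas the 10 genes grouped as proteases of clotting and fibrinolysis had 0.58. This group, called the proteases below, includes F13b, a factor XIII subunit that is not itself a protease. Clade A also varied most within a group, with a median SD over the 4 livers of 0.58, against 0.28 for all members and 0.23 for all genes.

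**Figure D1:**
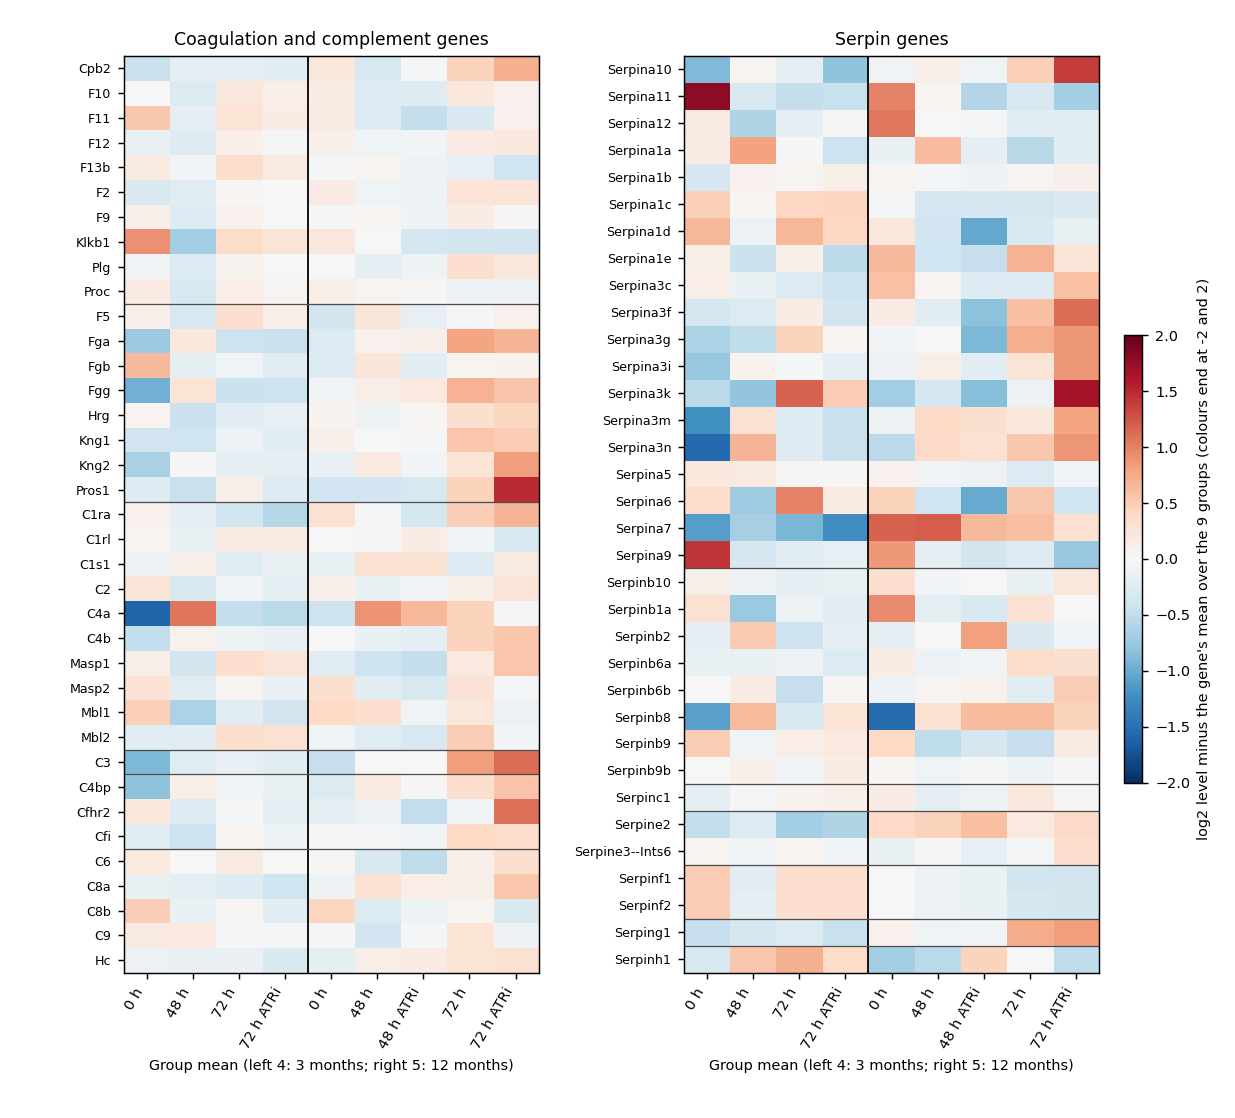
Heat map of 71 members (rows, by role) in the 9 group means (columns), coloured by log2 level minus the gene's mean over the 9 groups, with colours ending at -2 and 2. Serpina3k and Pros1 reached their highest level in the 12-month ATRi livers at 72 h, while most proteases of the upper left block stayed pale.

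A small set of members was nearly flat over all 9 means. Range was below 0.5 in 9 members, among them antithrombin Serpinc1, the chief inhibitor of thrombin (10.51 to 10.93), the clotting proteases F9 (7.58 to 7.99), F10 (8.03 to 8.52) and F12 (8.23 to 8.71), and Proc, the protease that shuts down clotting cofactors (8.76 to 9.25). Serpina5 (0.195 to 0.675) and Serpinb9b (0.352 to 0.608) were also among the 9, but near the lowest level of any gene (0.049). The share of all genes with a range below 0.5 was not counted, so flatness is not given as a trait of the members. Prothrombin F2 ran from 10.82 to 11.38 and plasminogen Plg, the precursor of plasmin, from 9.60 to 10.21. The widest of the 10 proteases were Klkb1, prekallikrein of the contact pathway (range 1.58), Cpb2, a carboxypeptidase that slows fibrin breakdown (1.16), and F11 (1.003).

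Fibrinogen is a complex of 3 chains encoded next to each other on chromosome 3 (GRCm38), Fgg at 83007724-83015049 and Fga at 83026076-83033627 on the plus strand and Fgb at 83040141-83049863 on the minus strand. The 250 bases before each RefSeq start, on GRCm38.p6, are shown because the chains did not follow the same course in these data. Capitals mark matches on either strand to TTCNNNGAA, the palindrome bound by STAT factors, to CTGGGAA, an interleukin-6 response element, and to TTGCNNAA, a C/EBP motif. No matches overlapped. The gene coordinates are from GENCODE, whose Fga start lies further upstream, so that the last 77 bases of the Fga window are inside the GENCODE gene.
Fgg chr3:83007474-83007723, plus strand: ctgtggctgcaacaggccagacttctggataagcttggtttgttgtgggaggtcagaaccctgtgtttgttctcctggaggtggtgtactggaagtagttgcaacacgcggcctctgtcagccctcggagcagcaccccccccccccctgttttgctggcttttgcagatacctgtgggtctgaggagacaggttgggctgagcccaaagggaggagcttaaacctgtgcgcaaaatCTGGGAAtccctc
Fga chr3:83025903-83026152, plus strand: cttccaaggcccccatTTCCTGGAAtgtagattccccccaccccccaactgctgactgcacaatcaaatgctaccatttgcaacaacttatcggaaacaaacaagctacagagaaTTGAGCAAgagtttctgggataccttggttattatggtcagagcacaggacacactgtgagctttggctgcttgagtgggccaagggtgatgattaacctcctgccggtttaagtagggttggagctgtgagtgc
Fgb chr3:83049864-83050113, minus strand: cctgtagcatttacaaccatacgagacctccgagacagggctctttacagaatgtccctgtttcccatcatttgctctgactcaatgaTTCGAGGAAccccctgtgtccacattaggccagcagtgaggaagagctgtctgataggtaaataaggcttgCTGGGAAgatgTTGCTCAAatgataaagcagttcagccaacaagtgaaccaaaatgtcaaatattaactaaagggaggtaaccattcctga
The Fgb window held 1 match to each of the 3 motifs, the Fga window 1 STAT and 1 C/EBP match, and the Fgg window 1 interleukin-6 element. Over all 32851 RefSeq promoter windows of this length, 7.02% held the STAT palindrome, 9.10% the interleukin-6 element and 9.56% the C/EBP motif. Of the 55 members with a window, 12, 8 and 19 held them, against 8.13%, 10.4% and 10.8% of all genes. A match describes the letters only.

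Fga and Fgg moved together, and Fgb did not follow them. In 3-month livers Fga was at 12.5 before PH, 13.44 at 48 h and about 12.8 at 72 h, and Fgg at 12.24, 13.48 and 12.77. Both chains thus stood highest at 48 h and were most of the way back at 72 h. In 12-month livers the course differed: Fga was at 12.95, 13.31 and 14.01, and Fgg at 13.15, 13.32 and 13.89, highest at 72 h. Fgb was at 5.75, 4.90 and about 5.01 in 3-month livers and at 4.82, 5.34 and 5.15 in 12-month livers, so that at 3 months it was lower after PH while the other chains were higher. The gap between Fga and Fgg changed by at most 0.46 over the 9 means, and that between Fga and Fgb by up to 2.11. The deposited level of Fgb was 6.75 to 8.86 below that of Fga in these means. Whether the Fgb entry captures its transcript as fully as the other entries do was not tested, so the course given is that of the entry. Among the single ATRi livers, Fga was at 13.08 in M545, 14.22 in M546, 13.91 in M547 and 13.89 in M548. Fgg was at 12.93, 14.07, 13.76 and 13.76, and Fgb at 4.53, 5.32, 5.37 and 5.14. M545 was the lowest liver for each chain.

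**Figure D2:**
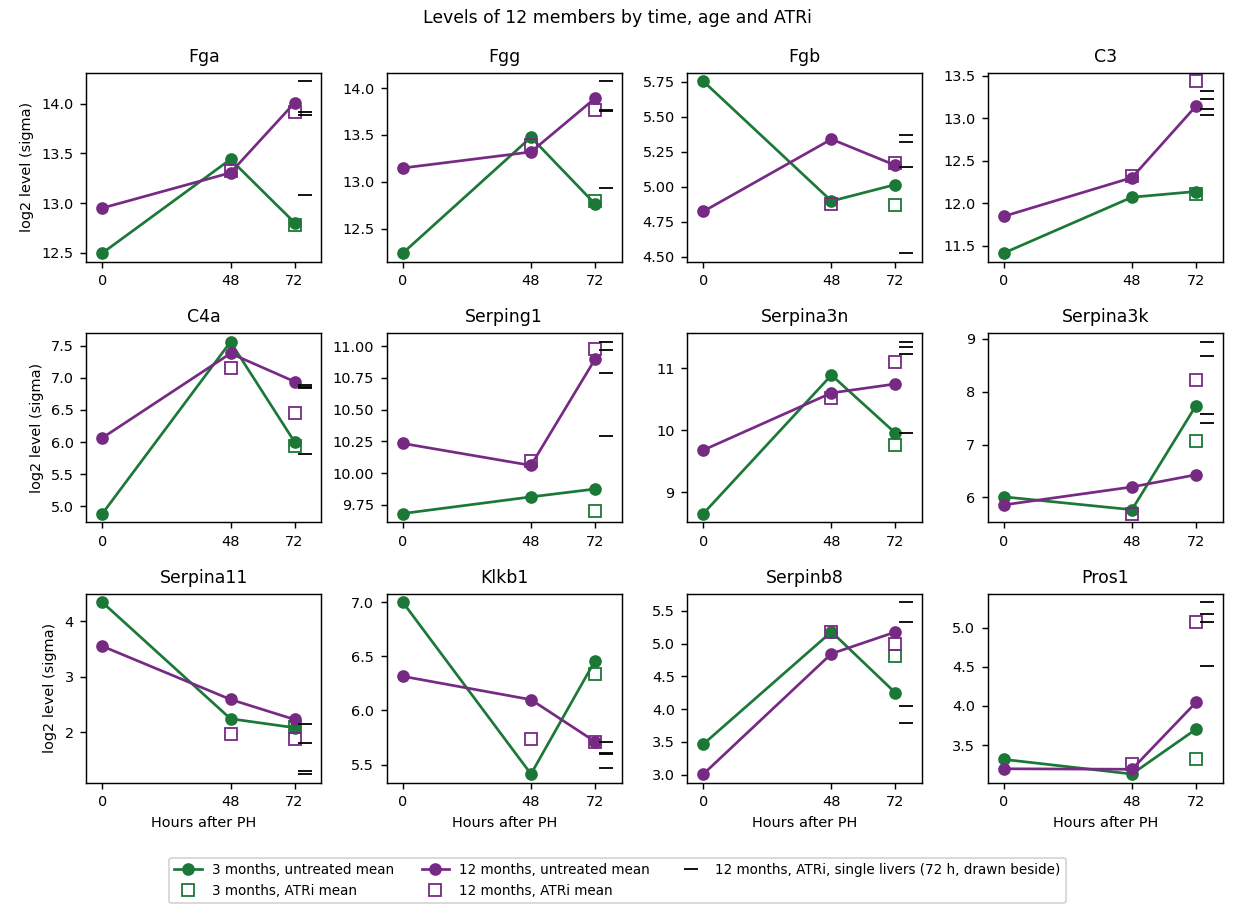
Log2 level (sigma, y axis) against hours after PH (x axis) for 12 members, with untreated group means as joined circles, ATRi means as open squares and the 4 single ATRi livers of 12 months as dashes beside 72 h. Fga and Fgg were highest at 48 h in 3-month livers and at 72 h in 12-month livers, and Serpina11 was lower after PH at both ages.

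At 48 h after PH in 3-month livers, 6 members were higher and 6 lower than before PH by 1 or more, against 3.76% and 2.67% of all genes. Among the higher members were C4a (2.67), Serpina3n (2.23), Serpinb8 (1.71), Serpina3m (1.54) and Fgg (1.24). C4a is a near-identical copy of complement C4b, and GENCODE M21 lists it as a processed transcript, so reads of the 2 copies may not be separable. Serpina3n is an acute phase inhibitor of granule proteases. The lower members were Serpina11 (-2.10), Serpina9 (-1.77), Klkb1 (-1.58), the mannose-binding lectin Mbl1 (-1.11), the corticosteroid carrier Serpina6 (-1.08) and Serpinb1a (-1.06). Of the 10 proteases, 8 were below 0, against 6753 of 11119 genes, with a median of -0.26, against -0.09 for all genes.

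At 72 h in 3-month livers 6 members were higher and 2 lower by 1 or more, against 2.46% and 2.02% of all genes. Serpina3k, another Serpina3 gene, was higher by 1.72, at 7.74 against 6.01 before PH and 5.77 at 48 h. Serpina3n (1.30), C4a (1.11), Serpina3g (1.08) and the collagen chaperone Serpinh1 (1.02) were also among the higher members. Serpina11 (-2.26) and Serpina9 (-1.65) were again lower, though the mean level of Serpina9 over the groups was only 1.53. From 48 to 72 h, Serpina3k (1.97), Serpina6 (1.72) and Klkb1 (1.04) were higher and C4a (-1.55) was lower, so 3 members were higher and 1 lower by 1 or more, against 1.61% and 3.04% of all genes.

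In 12-month livers at 48 h, 3 members were higher and 4 lower than before PH by 1 or more, against 3.26% and 1.85% of all genes. They included Serpinb8 (1.84) and C4a (1.31) on the higher side, and Serpinb1a (-1.14), Serpina12 (-1.06), Serpina9 (-1.06) and the antitrypsin gene Serpina1e (-1.04) on the lower side. Of these 4, Serpina1e alone had a mean level above 2 over the groups. In the same comparison all 8 macrophage markers were lower (median -0.87), as were all 5 neutrophil markers, and their part was not tested. At 72 h the counts were 6 and 3, against 2.92% and 1.01% of all genes. Serpinb8 (2.17), C3 (1.29), Serpina3n (1.07) and Fga (1.06) were among those higher, and Serpina11 (-1.32), Serpina12 (-1.28) and Serpina9 (-1.13) were lower, of which Serpina11 alone had a mean level above 2. All 8 cofactors, substrates and adhesive proteins were above their level before PH, as were 4438 of 11119 genes. Their median was 0.43, against -0.09 for all genes. From 48 to 72 h, Serpina1e (1.07) was the 1 member higher by 1 or more, and Serpina1a (-1.17) was among the 2 lower, against 3.32% and 1.89%. Over the same interval all 8 measured macrophage markers were higher by 1 or more, with a median of 2.12, as were all 5 measured neutrophil markers, with a median of 2.97. Their part in the members' differences was not tested.

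Both ages have their own mice, so the counts can be set side by side. At a difference of 0.5 or more at 48 h, 16 members were higher at 3 months and 8 at 12 months, 6 of them at both (37.5% and 75% of each list). Of all genes 10.5% and 9.94% passed, and those at both ages were 48.3% and 51% of each list. Those 6 included Serpinb8, Serpina1a, Serpina3m, Serpina3n and C4a. On the lower side 18 and 12 members passed, 10 of them at both ages (55.6% and 83.3%), among them Serpina6, Serpina1e, Serpina11, Serpina9 and Serpina12, against 13.2% and 8.71% of all genes (30% and 45.4% at both). At 72 h, 12 members were higher by 0.5 or more at both ages, 80% of the 15 at 3 months and 75% of the 16 at 12 months, against 8.53% and 10.2% of all genes (59.1% and 49.3% at both). Klkb1, Serpina11 and Serpina9 were lower at both.

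C3, where the routes of complement activation meet, lies on chromosome 17 (57203970-57228136, minus strand). The 250 bases before its RefSeq start are shown, with 1 C/EBP match in capitals, beside those of Serpina3n, which held none of the 3 motifs.
C3 chr17:57228137-57228386, minus strand: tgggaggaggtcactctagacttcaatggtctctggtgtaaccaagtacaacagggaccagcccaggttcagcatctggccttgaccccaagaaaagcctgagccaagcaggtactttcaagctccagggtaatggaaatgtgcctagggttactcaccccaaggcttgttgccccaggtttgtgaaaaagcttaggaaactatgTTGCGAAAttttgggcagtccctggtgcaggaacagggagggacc
Serpina3n chr12:104406458-104406707, plus strand: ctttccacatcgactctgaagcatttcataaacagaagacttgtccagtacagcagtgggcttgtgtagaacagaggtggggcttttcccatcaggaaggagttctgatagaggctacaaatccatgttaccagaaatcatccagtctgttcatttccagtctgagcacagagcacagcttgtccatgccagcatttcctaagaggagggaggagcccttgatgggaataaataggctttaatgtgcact
C3 was at 11.42, 12.07 and 12.14 before, 48 h and 72 h after PH in 3-month livers, and at 11.85, 12.30 and 13.14 in 12-month livers. Every mean after PH was above the mean of the same age before it. Serpina3n was at 8.65, 10.89 and 9.95 in 3-month livers and at 9.68, 10.60 and 10.74 in 12-month livers. As with Fga and Fgg, its highest untreated mean fell at 48 h in the young mice. In the older mice the Serpina3n mean at 72 h was above that at 48 h by only 0.145. The SD of Serpina3n over the single ATRi livers of 12 months at 72 h was 0.69. A later peak in older mice is therefore not resolved for this gene.

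By the median of each group, the genes downstream and beside C3 differed less than C3 itself (range 2.015). Over the 9 means the 5 terminal pathway genes, Hc (which encodes C5), C6, C8a, C8b and C9, had a median range of 0.78. The 10 recognition and early protease genes had 0.92, with C4a widest (4.89 to 7.56), a wider range than that of C3. The 5 regulators had 1.37, and among them C4bp, a cofactor for breaking down C4b, ran from 8.53 to 9.91. Serping1, the inhibitor of C1 and kallikrein, was between 9.68 and 9.88 in the untreated 3-month means and at 10.23, 10.06 and 10.90 in the 12-month ones.

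Before PH, 12-month livers had 4 members higher by 1 or more than 3-month livers and 0 lower, against 0.872% and 0.396% of all genes. Serpina7, which encodes thyroxine-binding globulin, differed most (2.29, 7.81 against 5.52), followed by C4a (1.18), Serpina3m (1.12) and Serpina3n (1.02). The macrophage markers were also higher before PH, 8 of 8 with a median of 0.62, and the neutrophil markers 5 of 5 with a median of 1.62, and their part was not tested. At 48 h, 2 members were higher, among them Serpina7 (1.87), and Serpinh1 (-1.09) was lower, against 0.782% and 0.576%. At 72 h, 6 members were higher and 1 lower, against 1.97% and 0.773%. These included Serpina7 (1.52), Fga (1.20), Fgg (1.13), Serping1 (1.02) and C3 (1.003), and on the lower side Serpina3k (-1.31). Serpina7 was the only member higher by 1 or more at all 3 times. Among ATRi livers at 72 h, where ages were tested, it was not called (difference 1.30, limma adjusted p = 0.0718). Its 12-month livers there ran from 5.63 in M545 to 7.86 in M548, against a 3-month ATRi mean of 5.39. At 72 h the macrophage markers were also higher at 12 months, 8 of 8 with a median of 1.17, and the neutrophil markers 5 of 5 with a median of 3.11, and their part in the result was not tested.

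At 48 h, 24 h after ATRi, 12-month livers had 0 members differing by 1 or more from untreated livers in either direction, against 0.324% and 0.252% of all genes. Of the 19 clade A serpins, 18 were lower in ATRi livers, against 5568 of 11119 genes, and 8 lower by 0.5 or more. Their median was -0.33, against -0.001 for all genes and -0.03 for the 47 members outside clades A and B. Each mean is of 3 mice without single values. In the 12-month ATRi group at 72 h, the median SD of clade A over the livers was 0.58. There M545 was low for several clade A genes together, so these genes are not independent observations. Serpina3g (-0.88), Serpina1a (-0.79), Serpina1d (-0.64), Serpina11 (-0.62) and Serpina6 (-0.61) differed most. Of clade B, which acts mainly inside cells, 7 of 8 were higher, though with a median of only 0.05. Serpinb2, whose mean level over the groups was only 0.58, was higher by 0.84, and Serpinh1 by 0.98. In the same comparison the 4 measured erythroid markers were all lower, with a median of -1.35, and 3 of the 4 hepatocyte markers higher, with a median of 0.12; their part in the result was not tested.

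Of the 19 clade A genes, 18 lie within 799.5 kb of chromosome 12 (103614786-104414329), and Serpina7 lies on the X chromosome. Shared sequence within the Serpina1 and Serpina3 groups means that reads may have been split between their members. In 3-month livers at 72 h, again 0 members differed by 1 or more with ATRi, against 0.054% and 0.126%. Here 55 of 74 members were lower, against 5644 of 11119 genes, with a median of -0.11, against -0.003 for all genes. The median SD of the members over the 4 single livers was 0.28, and M545 alone was the lowest of these in 40 of 74 members. The 55 members are therefore not independent observations. All 10 proteases were lower, though their median was only -0.09, as were all 5 complement regulators (median -0.16). The largest differences were in Serpina6 (-0.84) and Serpina3k (-0.67), and all 7 Serpina3 genes were lower (-0.67 to -0.13). The 8 macrophage markers were also all lower (median -0.29), as were the 4 erythroid ones (median -0.54), and their part was not tested.

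**Figure D3:**
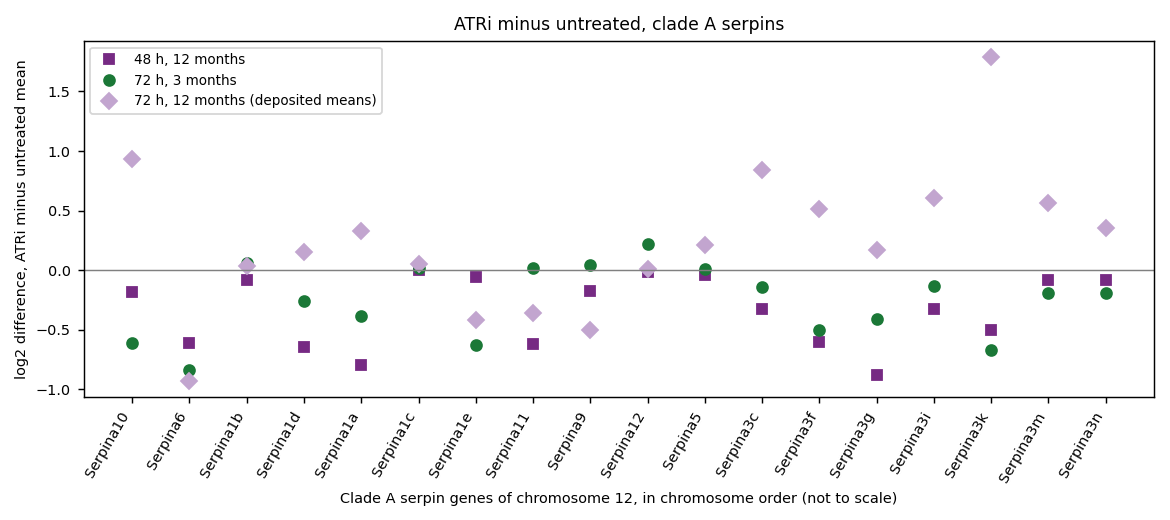
Difference of deposited log2 means, ATRi minus untreated (y axis), for the 18 clade A serpins of chromosome 12 in chromosome order (x axis), at 48 h and 12 months, 72 h and 3 months, and 72 h and 12 months. The 7 Serpina3 genes at the right lay below 0 in the first and second comparison and above 0 in the third.

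At 72 h in 12-month livers the sign was the other way for this group: all 7 Serpina3 genes had deposited ATRi means above the untreated mean, by 0.17 to 1.79. The single livers were divided: all 4 lay above the untreated mean for Serpina3k and Serpina3c, M545 lay below it for Serpina3f (-0.77), Serpina3g (-0.59), Serpina3i (-0.17), Serpina3m (-0.16) and Serpina3n (-0.78), and M546 for Serpina3i (-0.18). Over all members, 35 of 74 were above the untreated mean when the 4 livers were averaged, and 44 of 74 by the deposited mean. Over the 4 livers, limma called 0 members higher and 0 lower at an adjusted p under 0.05, against 0% of all genes in each direction, while 13 members and 4116 genes had an unadjusted p under 0.05. Serpina3k stood at 6.43 untreated and at 7.58, 7.40, 8.68 and 8.94 in M545, M546, M547 and M548 (difference 1.72, SE 0.387, limma adjusted p = 0.0521). All 4 livers lay above the untreated mean.

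The cofactor Pros1, protein S of the anticoagulant pathway, stood at 4.04 untreated and at 5.07, 4.52, 5.18 and 5.32 in the ATRi livers. Kng2, a kininogen, was nearly identical in the 4 livers (8.18, 8.21, 8.21 and 8.18) and lay above its untreated mean of 7.73 in each. M546 was the liver nearest to the untreated mean for Cfhr2, Pros1 and Serpina3k. Leaving out M545, M547 or M548 gave 0 calls over all genes. Without M546, limma called 10 members higher and 4 lower, against 20.3% and 8.39% of all genes. Leaving it out widened the difference for Pros1 (1.145 against 0.977) but not for Kng2 (0.4617 against 0.4665). Since M546 lies nearest to the untreated mean over all genes, these calls are given only as the dependence on 1 liver.

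**Figure D4:**
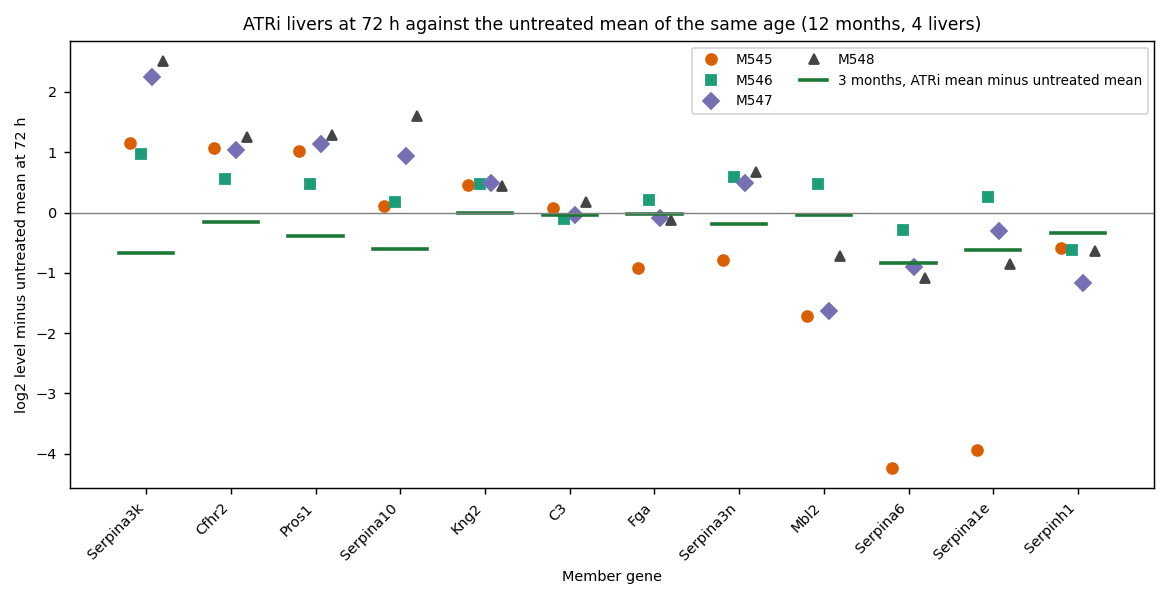
Log2 level of each ATRi liver of 12 months at 72 h minus the untreated mean of the same age and time (y axis) for 12 members (x axis), with a bar for the ATRi mean minus the untreated mean in 3-month livers. All 4 livers lay above 0 for Serpina3k, Cfhr2, Pros1, Serpina10 and Kng2, whereas M545 alone lay far below for Serpina6 and Serpina1e.

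The difference between ages in this ATRi effect was tested as an interaction, and limma called 0 members, against 0.00899% of all genes higher and 0% lower; 11 members and 2724 genes had an unadjusted p under 0.05. Serpina3k differed by 2.39 (limma adjusted p = 0.111). Leaving out M545, M547 or M548 again gave 0 calls over all genes. Without M546 there were 4 members called higher, against 10.4% of all genes, and 0 lower, against 3.07%, with the same limit.

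Among ATRi livers at 72 h, 22 members were higher and 6 lower at 12 than at 3 months by limma, against 17.3% and 12.9% of all genes. Serpina10, the inhibitor of factor Xa (1.98), Pros1 (1.70), the C1r gene C1ra (1.40) and Serpina3n (1.23) were among the higher members, each higher in 4 of 4 livers. The lower members were Serpinh1 (-1.12), Serpinf2, the plasmin inhibitor (-0.76), Serpinf1 (-0.75), Klkb1 (-0.74), Serpina1d (-0.69) and Serpina1c (-0.68). Serpinf1 and Serpinf2 are neighbours whose gap varied by only 0.016 over the 9 means, so their values may not be separate measurements. By role, 4 of 5 complement regulators and 5 of 8 cofactors and substrates were called higher, against 1 of 10 proteases. The macrophage markers were also higher, 8 of 8 with a median of 1.43 and 4 called, and the neutrophil markers 5 of 5 with a median of 2.71 and 4 called, while 4 of 9 stellate cell markers were called lower (median of the 9 -0.96); their part was not tested. Without M547 the members called were 11 higher and 3 lower (6.45% and 3.19% of all genes) and without M548 they were 9 and 4 (6.78% and 3.85%), and 11 of the 28 members were called whichever liver was left out. With each mean weighted like 1 liver, limma called 0 members in either direction.

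Between 48 and 72 h in 12-month ATRi livers, 17 members rose and 2 fell by limma, against 17.8% and 20.7% of all genes. Among the higher members were Serpina3k (2.45), Pros1 (1.77), Serpina3f (1.76), Serpina3g (1.75) and Cfhr2 (1.40), each in 4 of 4 livers. Serpinh1 fell by 1.19 and Serpinb2, whose mean level was only 0.58, by 0.79. Of the markers of other cells, limma called 7 of 8 macrophage genes higher (median 1.56), 4 of 5 neutrophil genes (median 2.42) and 3 of 4 erythroid genes (median 1.08), and 3 of 9 stellate cell genes lower; their part was not tested. Without M547 there were 10 higher members (11% of all genes) and without M548 there were 11 (11.6%), and 12 of the 19 were called whichever liver was left out. Weighting each mean like 1 liver left 3 higher, Kng2 and Pros1 among them, and 0 lower.

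Against 12-month livers before PH, 24 members rose and 10 fell in ATRi livers at 72 h by limma, against 23% and 25.1% of all genes. The mice of these livers are also among those measured before PH, and limma treated them as independent. Serpina3k rose by 2.29, Pros1 by 1.83, Serpinb8 by 1.69 and C3 by 1.32 (SE 0.106, limma adjusted p = 0.00101). Serpina11 fell by 1.92, Serpina9 by 1.52, Serpina12 by 1.36, Serpinb1a by 0.96, C8b by 0.72 and Klkb1 by 0.72. Of the markers, 4 of 8 macrophage and 3 of 5 neutrophil genes were called higher and 3 of 4 erythroid genes lower, and their part was not tested. Without M547 the counts were 14 and 6 (16.4% and 16.2% of all genes) and without M548 they were 15 and 9 (17.4% and 17.9%), and 18 of the 34 were called whichever liver was left out. Weighting each mean like 1 liver left 2 higher, C3 among them, and 2 lower (Serpina12 and Serpina9).

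By the median SD of each role group, the 4 ATRi livers differed among themselves most in the clade A serpins (0.58). The median SD was 0.34 for all serpins and 0.35 for the cofactors, substrates and adhesive proteins. M545 was the lowest liver in 40 of the 74 members and lay 1 or more below the median of the others in 9, all of them serpins. Over all 11119 genes these counts were 2595 and 229 for M545. Over all genes M546 was the lowest liver most often, in 4196. Serpina1e was at 8.16 in M545 and at 12.35, 11.79 and 11.25 in the others, and Serpina6 at 3.46 against 7.40, 6.79 and 6.62. The gap between Serpina1e and Serpina6 stayed between 4.63 and 4.99 in the 4 livers, while both were low in M545. Serpinb6b went the other way, at 4.15 in M545 and 1.31, 2.02 and 1.28 in the others. M545 also had the highest summed macrophage markers (10.1 against 9.12 to 9.35) and the lowest endothelial ones (5.96 against 6.73 to 7.04), and their part in these values was not tested.

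Other genes of these pathways were read from lists of receptors and regulators (49 of 57 measured) and of interleukin-6 signalling and hepatocyte transcription factors (14 of 17 measured). At 72 h with ATRi, 12 against 3 months, limma called 14 of the 49 higher and 5 lower, and 6 of the 14 regulators higher and 2 lower, against 17.3% and 12.9% of all genes. Crp, a pentraxin, was higher by 4.18 (limma adjusted p = 0.00224), and Stat3, the transcription factor downstream of interleukin-6, by 2.42. Against livers before PH at 12 months, 13 and 9 of the 49 were called higher and lower, with Crp at 3.69, and 6 and 3 of the 14, with Foxa1, a hepatocyte factor, at -3.0015, against 23% and 25.1% of all genes. ATRi against untreated livers of 12 months at 72 h gave 0 calls in either list.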

How the data were processed

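Polyadenylated RNA of 40 mouse liver samples in 9 groups had been sequenced, per the labels. The authors deposited 12 tables of log2 levels (sigma, not defined) for 11119 genes, with 1 mean for each of the 9 groups and the 4 livers of the 12-month ATRi group at 72 h. The submitters' processing notes name the builds GRCm38 and mm10. The aligner, the counting, strand, scaling and filters are not given in the sources used here, and depth is unknown.

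Values were used as deposited. In 11 comparisons differences of means were described without a test. In 5 comparisons limma 3.58.1 (R 4.3.3; intensity trend, robust, two-sided, Benjamini-Hochberg over all genes, adjusted p under 0.05) took each liver with weight 1 and each mean with its number of mice. All spread comes from the 4 livers, and the means are taken to vary equally. The labels place 4 mice of 3 months and 8 of 12 months both before and 72 h after PH. Nothing in the labels says more on how samples were taken, so p-values measure the spread between these livers. The script was tested on simulated data. Coordinates are from GENCODE M21, which matched 73 members, and promoters from RefSeq, which matched 55. The text names up to 6 members with the largest and up to 6 with the smallest difference of a comparison, a fixed set of reference members, and examples by role; Serpina1e, Serpina6 and Serpinb6b across livers were chosen after their values were seen. Single results of 3 members are not reported here; counts cover all 74. Members and lists were chosen with earlier results of these data known. Alternatives were centring, a filter on mean level above 2, limma without trend, equal weights, the deposited mean, and leaving out livers.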

Additional observations from a re-analysis of the deposited data

Results flagged for a closer look

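In 8 of 71 members, 1 of the 4 ATRi livers of 12 months at 72 h lay apart from the others by Dixon's criterion, which flags about 1 in 20 groups by chance. M545 was low for Serpina3n (9.96, others 11.23 to 11.42), C9 (7.40, others 7.84 to 7.86) and Kng1 (10.04, others 10.70 to 10.77). M547 was low for Serpinh1 (1.39, others 1.92 to 1.98) and C4a (5.82, others 6.84 to 6.89) and high for Serpina12 (1.74, others 1.43 to 1.47). M548 was high for C1ra (6.37, others 5.71 to 5.82) and low for Serpinb6a (2.47, others 3.01 to 3.07).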

How the results depend on the processing

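No paired analysis was possible because the livers before PH and at 48 h are deposited only as group means. Centring on the median of all genes moved the members' median to -0.030 (48 h, 3 months), 0.11 (72 h, 3 months) and 0.20 (72 h, 12 months), each against 0 h, and gave 3 members higher from 48 to 72 h at 12 months. Keeping genes with a mean level above 2 left 1 member lower against 0 h at 72 h and 3 months (median 0.16), 1 at 48 h and 12 months, and 1 at 72 h and 12 months (median 0.19). It left 1 lower between 48 and 72 h with ATRi, and gave a median of 0.19 for ATRi at 72 h against 0 h. Weighting each mean like 1 liver gave 0 members higher and 0 lower between ages with ATRi, 3 and 0 between 48 and 72 h, and 2 and 2 against 0 h. The deposited mean in place of the 4 livers gave medians of 0.31 between ages and 0.15 for the interaction.

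Leaving out each liver gave 0 to 10 members higher and 0 to 4 lower for ATRi against untreated at 72 h (median -0.05 to 0.03), 9 to 24 and 3 to 9 between ages (0.20 to 0.26), 10 to 24 and 2 to 3 between 48 and 72 h (0.21 to 0.33), 14 to 27 and 6 to 13 against 0 h (0.07 to 0.16), and 0 to 4 and 0 to 0 for the interaction (0.00 to 0.12). The median for ATRi against untreated at 72 h, -0.03 with all 4 livers, changed sign without M545 (0.03) and with the deposited mean (0.07); the other medians kept their sign under every alternative run, and no called member that the text names changed sign. The log2 of the linear mean of the livers, chosen after seeing the data and without a test, moved each of 81 single values by less than the SD between livers.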
